A study of Rattus norvegicus with 10 samples.

Results

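Cultured myoblasts from the soleus muscle of rats after 14 days of hindlimb suspension (HS14) were compared with those after 3 days (HS3). The comparison rests on 4 of the 10 RNA libraries of the study, 2 of HS14 and 2 of HS3, chosen by their sample titles alone. The animals of both groups were 3-month-old male Wistar rats, and both groups had been suspended, in which the hindlimbs are lifted off the floor so that the soleus bears no weight. Satellite cells were isolated from the muscle, pre-plated to remove cells that attach quickly, grown in serum-rich medium on a Geltrex coat and sequenced about a day after pre-plating, before differentiation was induced. The other libraries came from unsuspended rats (Control) and from rats suspended for 1 (HS1) or 7 days (HS7), 2 libraries each, and serve here only to place the levels. It is not stated if the 2 libraries of each group derive from separate animals or separate cultures, so p-values measure the spread between these libraries, which may be technical.

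Satellite cells are the stem cells of skeletal muscle. Once activated they become dividing myoblasts, and a myoblast that leaves the cell cycle switches on *Myog* (myogenin), then the fusion genes and the genes of the contractile apparatus. Muscle also holds fibroblasts and fibro-adipogenic progenitors, which make collagens and other matrix proteins and are marked by *Pdgfra*, and some of them can remain in a myoblast culture after pre-plating.

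The total count was 20200972 and 26007203 in the HS3 libraries and 28175200 and 23195342 in the HS14 libraries, and a count of 3, the smallest level taken as detectable, corresponded to 0.104 to 0.152 CPM (counts scaled to a common library total) in these 4 libraries. The biological coefficient of variation between libraries of a group was 9.07% in HS3 and 5.54% in HS14. Levels below are CPM, and fold changes, standard errors (SE) and adjusted p-values come from edgeR's quasi-likelihood test on the 4 libraries, adjusted by the Benjamini-Hochberg method across all 13103 genes that entered the fit. A gene passed with an adjusted p under 0.01, and a differentially expressed gene (DEG) also changed by more than 1.5 on the log2 scale, up or down. Symbols are known only for genes that the study called against Control at some time point, 340 of them on its lists for HS3 or HS14, which use the libraries compared here, so the make-up of the gene lists below is not independent of these data.

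The genes that separated day 14 from day 3 mostly fell. Of the 13103 genes tested, 1811 rose (13.8%) and 2372 fell (18.1%) from HS3 to HS14. With the fold limit, 184 DEGs were higher (1.40%) and 647 were lower (4.94%) in HS14, while the median log2 fold change of all genes tested was 0.01. Among the 745 tested genes with a symbol the imbalance was wider, with 88 that rose, 467 that fell (62.7%) and a median of -1.47. The lists below are drawn from these genes, so their counts are to be read against this share too. The 340 genes that the study listed for HS3 or HS14 had 58 that rose, 255 that fell (75%) and a median of -2.4. The 405 listed only for HS1 or HS7 leaned the same way, with 30 that rose, 212 that fell and a median of -0.91. The 12358 genes without a symbol had a median of 0.03 and held 127 of the higher and 289 of the lower DEGs.

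**Figure D1:**
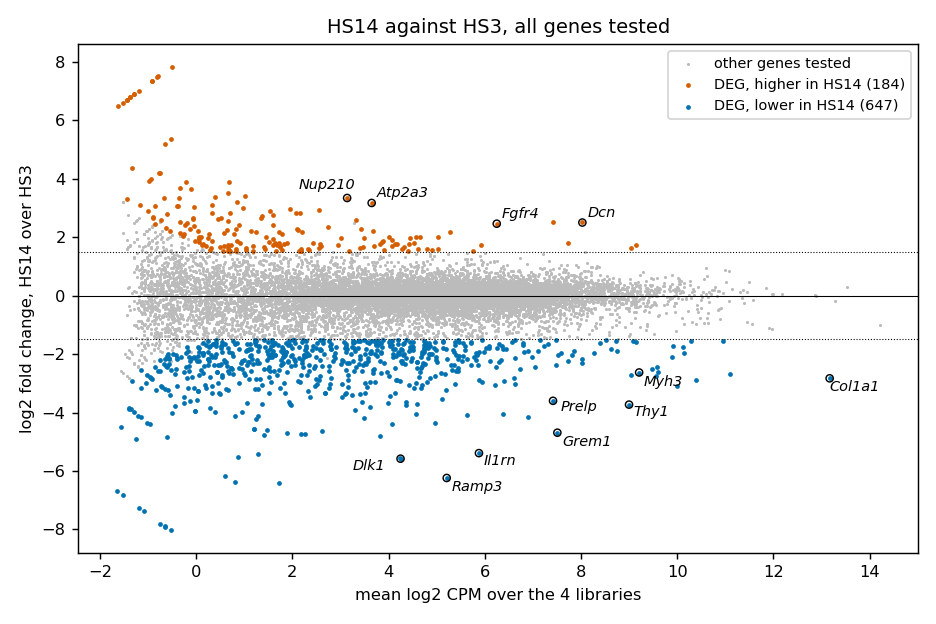
Each point is one of the 13103 genes tested, with its mean log2 CPM over the 4 libraries on the horizontal axis and its log2 fold change, HS14 over HS3, on the vertical axis. Colours mark the 184 DEGs higher and the 647 DEGs lower in HS14, dotted lines the fold limit of 1.5, and circles named genes; among genes with a high mean level, lower DEGs outnumber higher ones.

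The genes of early muscle differentiation were lower at day 14. The list of myogenic regulators and fusion genes names 18 genes, but only 11 had a symbol here and were tested. *Pax7*, *Myod1* and *Myf5* had none and were not analysed. Of the 11 tested genes of this list, 9 fell and 2 rose, with a median log2 fold change of -1.30. *Myog*, the transcription factor of terminal differentiation, was at 426 and 387 CPM in HS3 and at 182 and 153 CPM in HS14. Its log2 fold change was -1.30 (SE 0.09, adjusted p = 1.54e-11), which makes HS3 2.46-fold higher, and both HS14 libraries also lay below the Control libraries at 233 and 243 CPM. In a bulk culture, fewer cells of a kind and less RNA of a gene per cell cannot be told apart, here and in all that follows.

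The fusion genes fell as well. *Mymk* (myomaker), a membrane protein that myoblasts need to fuse, was at 126 and 131 CPM in HS3 and 76.3 and 65.2 CPM in HS14, a log2 fold change of -0.88 (SE 0.09, adjusted p = 8.52e-09), and with all 10 libraries in one fit it did not pass (adjusted p = 0.0128). Its partner *Mymx* (myomixer) was at 15.5 and 17.8 CPM in HS3 and 7.57 and 5.60 CPM in HS14 (log2 fold change -1.36, SE 0.17, adjusted p = 3.77e-07). For both genes the HS14 libraries were near the Control libraries, at 72.8 and 75.2 CPM for *Mymk* and 7.79 and 9.03 CPM for *Mymx*. *Chrnd*, the delta subunit of the muscle acetylcholine receptor, fell from 37.2 and 38.2 CPM to 15.3 and 11.7 CPM, and *Erbb3*, a neuregulin receptor, from 22.5 and 20.8 CPM to 12.8 and 10.5 CPM.

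The 2 members that rose are genes of myoblasts before terminal differentiation. *Fgfr4*, a fibroblast growth factor receptor of myoblasts, was at 21.3 and 25 CPM in HS3 and at 133 and 126 CPM in HS14, with no overlap. Its log2 fold change of 2.46 (SE 0.10, adjusted p = 1.24e-16) was the largest rise of the list, and its HS3 level was the lowest of the 5 groups. *Msc* (musculin), a repressor of the MyoD family, was at 2.54 and 2.90 CPM in HS3 and 7.50 and 4.67 CPM in HS14 (log2 fold change 1.14, SE 0.26, adjusted p = 0.000762), and it no longer passed without the first HS14 library (log2 fold change 0.75, adjusted p = 0.0742).

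Genes of the sarcomere, the contractile unit of muscle, fell in most cases. In the thick filament and M-line list 12 of 15 tested genes fell and the others did not pass, with a median of -2.12. In the thin filament and Z-disc list 22 of 23 fell, with a median of -1.85. Only *Nexn* (nexilin), at 80.1 and 75.3 CPM in HS3 and 73.8 and 74.2 CPM in HS14, did not pass there (adjusted p = 0.408). Summed over its 15 genes, the thick filament list stood at 1770 and 1920 CPM in HS3 and at 377 and 362 CPM in HS14.

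*Myh3*, the embryonic myosin heavy chain and the gene with the smallest adjusted p of the thick filament list, was at 979 and 1050 CPM in HS3 and at 172 and 159 CPM in HS14. Its level was 6.21-fold higher in HS3 (log2 fold change -2.63, SE 0.08, adjusted p = 6.09e-19), and HS14 lay below Control at 309 and 336 CPM. The light chains *Mylpf*, from 414 and 426 CPM to 93.3 and 98.5 CPM, and *Myl4*, from 147 and 175 CPM to 36.7 and 38.4 CPM, fell by 2.15 and 2.12 on the log2 scale. By contrast the slow myosin *Myh7*, at 5.69 and 5.37 CPM in HS3 and 3.84 and 4.21 CPM in HS14, did not pass (adjusted p = 0.0843), and neither did *Myh7b* nor *Mylk3*.

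In the thin filament, *Actn2*, the Z-disc crosslinker alpha-actinin, was at 343 and 357 CPM in HS3 and 79.2 and 73.1 CPM in HS14 (log2 fold change -2.22, SE 0.08, adjusted p = 2.91e-17). *Tnni1*, the slow troponin I, fell from 128 and 136 CPM to 29.5 and 29 CPM (log2 fold change -2.19, SE 0.09, adjusted p = 2.41e-16). *Tnnc2*, the fast troponin C, fell from 60.5 and 71.4 CPM to 12.8 and 12.9 CPM (log2 fold change -2.39, SE 0.11, adjusted p = 5.57e-15), so members of both fibre types went down. Skeletal actin *Acta1*, at 632 and 652 CPM in HS3 and 239 and 226 CPM in HS14, and cardiac actin *Actc1*, at 707 and 768 CPM in HS3 and 307 and 296 CPM in HS14, fell by 1.49 and 1.31 on the log2 scale, under the fold limit for a DEG.

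Because most of these genes fell together, with *Fgfr4* as an exception, the promoters of the 4 members with the smallest adjusted p among those at hand are shown, 1 for each of the muscle lists (regulators, thick filament, thin filament, calcium handling). The sequences are from RefSeq on build GRCr8 and hold the 250 bases before the gene start, 5′ to 3′ on the gene's strand. Capitals mark the E-box CANNTG, the pattern that myogenin and other basic helix-loop-helix factors can bind. *Fgfr4* lies on the minus strand at chr17:9481390-9481639, *Myh3* on the plus strand at chr10:52268935-52269184, *Actn2* on the plus strand at chr17:62834805-62835054 and *Casq2* on the plus strand at chr2:192214306-192214555.
Fgfr4: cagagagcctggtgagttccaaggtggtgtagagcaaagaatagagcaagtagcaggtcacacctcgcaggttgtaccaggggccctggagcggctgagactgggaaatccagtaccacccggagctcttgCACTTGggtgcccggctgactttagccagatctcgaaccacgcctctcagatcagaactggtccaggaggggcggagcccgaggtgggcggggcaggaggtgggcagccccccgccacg
Myh3: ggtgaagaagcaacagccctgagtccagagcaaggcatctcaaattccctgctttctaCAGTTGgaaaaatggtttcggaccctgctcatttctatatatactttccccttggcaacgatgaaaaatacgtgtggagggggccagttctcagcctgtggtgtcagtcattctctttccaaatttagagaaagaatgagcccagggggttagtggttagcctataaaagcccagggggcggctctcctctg
Actn2: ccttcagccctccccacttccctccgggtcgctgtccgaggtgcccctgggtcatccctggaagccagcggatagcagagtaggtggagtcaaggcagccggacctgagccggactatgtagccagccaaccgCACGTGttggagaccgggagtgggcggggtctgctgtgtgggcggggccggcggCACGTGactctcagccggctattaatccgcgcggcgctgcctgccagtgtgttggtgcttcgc
Casq2: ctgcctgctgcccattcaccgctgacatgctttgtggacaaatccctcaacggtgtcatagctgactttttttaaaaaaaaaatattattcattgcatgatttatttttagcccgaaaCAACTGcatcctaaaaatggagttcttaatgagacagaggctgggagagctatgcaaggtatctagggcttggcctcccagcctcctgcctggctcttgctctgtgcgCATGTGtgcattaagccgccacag
The pattern occurs at 1 place each for *Fgfr4*, which rose, and *Myh3*, which fell, and at 2 places each for *Actn2* and *Casq2*, so the letters are found in promoters of genes of both directions. Of the 66 tested genes of the 4 lists, 47 had a promoter in the table, and 37 of these 47 (78.7%) held CANNTG on either strand within 250 bases, against 65.3% of all 27457 promoters. The narrower E-box CAGCTG, which is contained in CANNTG, was in 13 of the 47 (27.7%) against 12% of all promoters, the MEF2 motif in 5 (10.6%) against 3.06%, and the CArG box in 2 (4.26%) against 1.5%. These shares describe letters in a window and were not tested, and no binding was measured.

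Excitation-contraction coupling, which turns a membrane signal into calcium release, gave a like count, with 14 of 17 tested genes that fell, 1 that rose and a median of -1.81. *Ryr1*, the calcium release channel of the sarcoplasmic reticulum, was at 80 and 96.3 CPM in HS3 and at 18.9 and 15.9 CPM in HS14 (log2 fold change -2.36, SE 0.11, adjusted p = 1.43e-14). *Casq2*, a calcium-storing protein, fell from 77.1 and 75.2 CPM to 16.3 and 16.2 CPM, and *Sln* (sarcolipin), an inhibitor of the calcium pump, from 38.9 and 45.8 CPM to 6.05 and 4.76 CPM. *Atp2a3*, a calcium pump of many non-muscle cells, was the 1 member that rose. It was at 2.54 and 2.31 CPM in HS3 and at 21.4 and 22.7 CPM in HS14 (log2 fold change 3.17, SE 0.18, adjusted p = 1.29e-13), its highest level in the 5 groups.

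**Figure D2:**
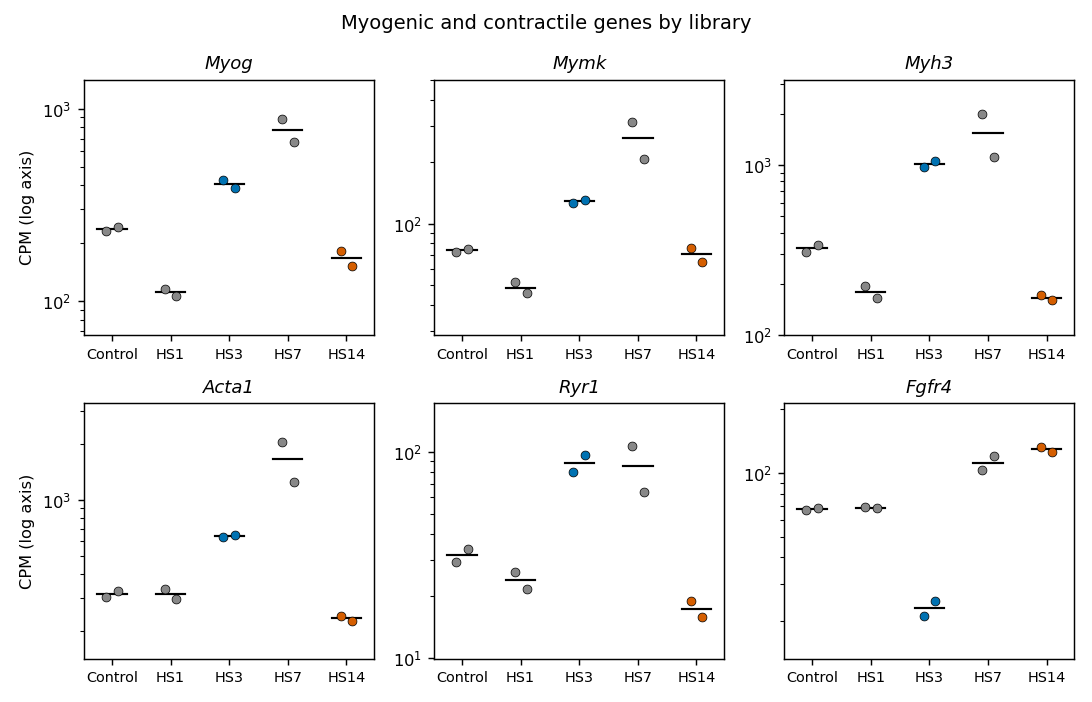
CPM on a log axis in each of the 10 libraries, by group, for 6 genes of muscle differentiation; points are libraries, horizontal lines group means, and colours mark HS3 (blue) and HS14 (orange). *Myog*, *Mymk*, *Myh3*, *Acta1* and *Ryr1* are lower in both HS14 libraries than in both HS3 libraries, and *Fgfr4* is higher.

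Genes of muscle energy use fell in 6 of 9 cases, with a median of -2.19, which is near the share of all genes with a symbol that fell, and the other 3 did not pass. Glycogen phosphorylase *Pygm* went from 26.7 and 29.8 CPM to 3.73 and 4.88 CPM, and the oxygen store *Mb* (myoglobin) from 11.1 and 13.6 CPM to 1.73 and 1.35 CPM. Muscle creatine kinase *Ckm* fell from 23.2 and 21.6 CPM to 2.94 and 5.05 CPM, the widest of these HS14 pairs. Of the 7 muscle ubiquitin ligases and chaperones 6 fell, with a median of -1.52, among them *Unc45b*, a myosin chaperone, from 37 and 34.2 CPM to 15.2 and 12 CPM. The atrophy ligase *Trim63* (MuRF1) fell from 6 and 6.12 CPM to 1.87 and 2.44 CPM (log2 fold change -1.52, SE 0.25, adjusted p = 2.02e-05). The other atrophy ligase, *Fbxo32* (atrogin-1), was at 8.74 and 5.84 CPM in HS3 and 4.87 and 3.96 CPM in HS14 and missed the threshold (log2 fold change -0.73, SE 0.23, adjusted p = 0.0107); it passed in 4 of the alternative settings, among them without the second HS3 library (adjusted p = 0.000127) and without the first HS14 library (adjusted p = 0.00891).

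Matrix genes were the other large group that fell. Of 13 tested collagens 11 fell (median -1.49), and of 28 proteoglycans and matrix glycoproteins 21 fell and 3 rose (median -2.28). Of all tested genes with a symbol 62.7% fell (median -1.47), and of those the study listed for HS3 or HS14 75% fell (median -2.4). The collagen median was near the former median, and the glycoprotein share and median were near the latter. *Col1a1*, the main fibrillar collagen chain, was at 14200 and 18100 CPM in HS3 and at 2400 and 2210 CPM in HS14. That is 7.09-fold higher in HS3 (log2 fold change -2.83, SE 0.10, adjusted p = 1.49e-11), and the HS14 libraries lay below the 6540 and 7010 CPM of Control. *Col6a1*, a chain of the microfibrillar collagen VI, fell from 1170 and 1450 CPM to 207 and 184 CPM, and *Col8a1* from 310 and 281 CPM to 74.1 and 71.7 CPM. *Col6a3* moved less than its partner chains, from 1550 and 1720 CPM to 980 and 791 CPM, a log2 fold change of -0.90, and was under the fold limit.

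Among the glycoproteins, the elastic microfibril genes fell far. *Fbn1* (fibrillin 1) went from 2360 and 2340 CPM to 343 and 307 CPM (log2 fold change -2.88, SE 0.08, adjusted p = 9.97e-20), and *Fbn2* from 33.3 and 43.9 CPM to 3.42 and 2.86 CPM. *Mfap5*, a microfibril-associated protein, was at 143 and 172 CPM in HS3 and 9.23 and 9.89 CPM in HS14, 16.7-fold higher in HS3. *Prelp*, a small leucine-rich proteoglycan, fell from 307 and 324 CPM to 26.3 and 26.4 CPM (log2 fold change -3.60, SE 0.09, adjusted p = 2.61e-20), the smallest adjusted p of the list. *Thbs4* (thrombospondin 4) fell from 109 and 120 CPM to 27.2 and 21.6 CPM, and *Dpt* (dermatopontin) from 14.4 and 16.3 CPM to 1.24 and 1.6 CPM.

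*Dcn* (decorin), also a small leucine-rich proteoglycan and a common fibroblast marker, went the other way. It was at 80.2 and 74.9 CPM in HS3 and at 439 and 454 CPM in HS14, 5.67-fold higher in HS14 (log2 fold change 2.50, SE 0.08, adjusted p = 2.69e-18). Its HS14 level was the highest of the 5 groups, with Control at 165 and 160 CPM. *Prg4* (lubricin) also rose, from 125 and 101 CPM to 220 and 181 CPM (log2 fold change 0.81, SE 0.11, adjusted p = 4.92e-05), and so did *Sparcl1* from a low level. The relatives *Lum* (lumican), at 13.3 and 11.1 CPM in HS3 and 9.23 and 9.77 CPM in HS14, and *Acan* (aggrecan) did not pass (adjusted p = 0.0633 and 0.0627).

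**Figure D3:**
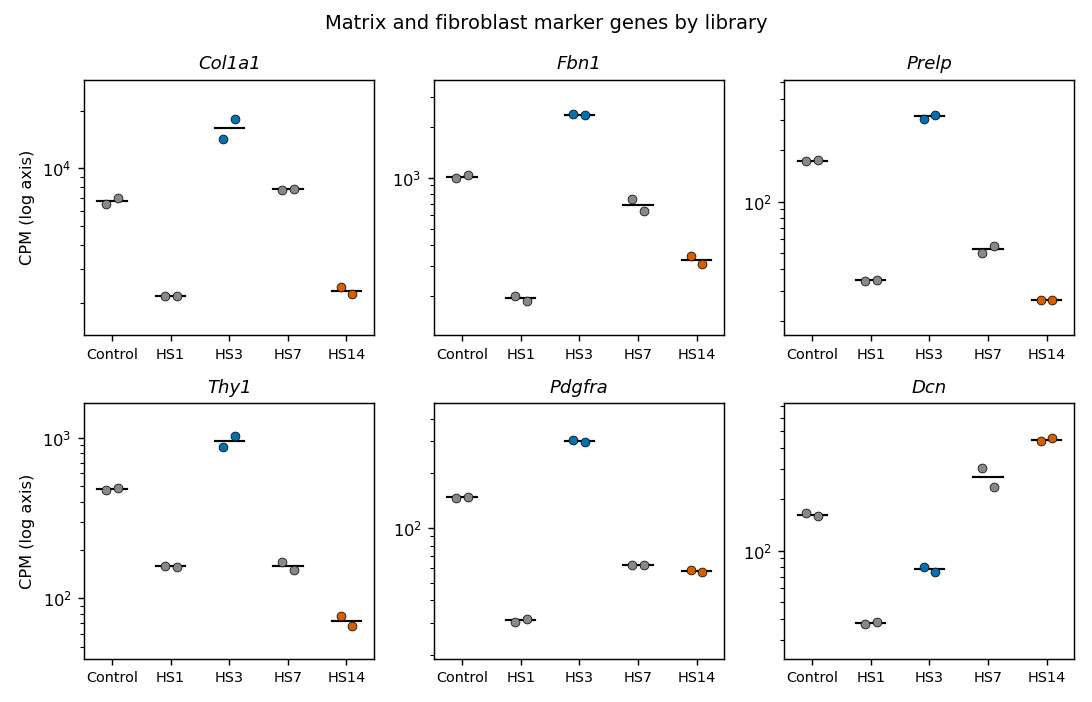
CPM on a log axis in each of the 10 libraries, by group, for 6 matrix and fibroblast marker genes; points are libraries, horizontal lines group means, and colours mark HS3 (blue) and HS14 (orange). *Col1a1*, *Fbn1*, *Prelp*, *Thy1* and *Pdgfra* are lower in HS14 than in HS3 in every library, while *Dcn* is highest in HS14.

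Of 18 tested enzymes that build or cut the matrix 12 fell and 2 rose, with a median of -1.94 and a share of falls near the 62.7% of all genes with a symbol. The lysyl oxidase *Loxl3*, which crosslinks collagen, fell from 159 and 182 CPM to 25.6 and 23.4 CPM, the hyaluronan synthase *Has2* from 235 and 213 CPM to 42 and 41 CPM, and the protease *Adamts9* from 91.2 and 93 CPM to 23.7 and 21.9 CPM. The inhibitor *Timp3* rose from 0.965 and 2.11 CPM to 6.81 and 7.79 CPM (log2 fold change 2.18, SE 0.28, adjusted p = 7.68e-07), and the gelatinase *Mmp9* rose from 4.06 and 4.85 CPM to 9.61 and 9.51 CPM.

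The markers of fibroblasts and fibro-adipogenic progenitors mostly fell as well. *Col1a1*, *Col14a1*, *Dcn*, *Lum* and *Prg4* are also members of the matrix lists above, so the lists are not independent of each other. All 10 markers were tested, with a median of -2.61. Of them 7 fell, a share near the 62.7% of all tested genes with a symbol, 2 rose (*Dcn* and *Prg4*) and *Lum* did not pass. The summed level of the 10 markers was 15700 and 19700 CPM in HS3 and 3230 and 3000 CPM in HS14, most of it *Col1a1*. *Pdgfra*, which defines these progenitors, was at 304 and 297 CPM in HS3 and 59 and 57.3 CPM in HS14 (log2 fold change -2.39, SE 0.08, adjusted p = 8.70e-18). *Thy1*, a surface marker, was at 880 and 1020 CPM in HS3 and 77.7 and 67.4 CPM in HS14, 13.3-fold higher in HS3, and *Osr1*, a transcription factor of the progenitors, fell from 18.4 and 19.4 CPM to 1.11 and 1.43 CPM. *Islr* and *Scara5* fell by 2.95 and 2.88 on the log2 scale, and *Col14a1* by 0.53 with a call that was lost under 4 of the alternative settings, 3 of which leave out a library (adjusted p from 0.0142 to 0.0881). The part of these cells in the fall of the matrix and signalling genes was not tested.

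Signalling genes are given by pathway, ligands first. In the Wnt pathway 11 of 16 tested genes fell and 2 rose, with a median of -1.92, and in the growth factor list below 12 of 17 fell, both shares near that of the genes with a symbol. The ligand *Wnt5a* was at 167 and 172 CPM in HS3 and 57.9 and 47.8 CPM in HS14 (log2 fold change -1.70, SE 0.09, adjusted p = 8.17e-14), and *Wnt4* at 70.8 and 76.1 CPM in HS3 and 13.3 and 13.6 CPM in HS14. *Wnt10b*, a ligand known to favour myogenesis over fat formation, rose from 0.711 and 0.715 CPM to 3.21 and 3.58 CPM (log2 fold change 2.22, SE 0.36, adjusted p = 1.57e-05), with Control at 4.27 and 5.57 CPM. The secreted regulator *Dkk3* fell from 64.3 and 64.5 CPM to 5.81 and 5.56 CPM, and *Nkd2*, an inhibitor inside the cell, from 39.2 and 51.2 CPM to 2.77 and 2.82 CPM. *Wif1*, a secreted Wnt inhibitor, rose from 5.49 and 4.53 CPM to 11.8 and 8 CPM, and the count of this list that rose was 1 without the first HS14 library.

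In the BMP and TGF-beta list 13 of 17 genes fell and 2 rose, with a median of -2.25. This share of falls was near the 75% of genes with a symbol that the study listed for HS3 or HS14. The ligand *Bmp2* fell from 29.1 and 26.7 CPM to 6.74 and 6.44 CPM (log2 fold change -2.10, SE 0.14, adjusted p = 4.34e-12), while *Bmp6* rose from 1.02 and 1.03 CPM to 4.04 and 4.25 CPM (log2 fold change 1.99, SE 0.31, adjusted p = 1.20e-05). *Tgfb2* was at 222 and 168 CPM in HS3 and 248 and 242 CPM in HS14 and did not pass (adjusted p = 0.0369), though it did with no expression filter (adjusted p = 0.00107), in a fit of all 10 libraries (adjusted p = 0.00851) and without the first HS3 library (log2 fold change 0.52, adjusted p = 4.51e-11). The count of the list that rose was 1 without either HS14 library in turn. *Grem1* (gremlin 1), a secreted BMP antagonist, had the smallest adjusted p of all genes with a symbol. It was at 351 and 348 CPM in HS3 and at 12.5 and 15.1 CPM in HS14, 25.8-fold higher in HS3 (log2 fold change -4.69, SE 0.10, adjusted p = 1.85e-21), and Control stood at 261 and 256 CPM. The type I receptor *Acvrl1* fell from 59.2 and 66.7 CPM to 11.3 and 8.46 CPM, and *Lrrc32*, which holds latent TGF-beta on the cell surface, from 181 and 180 CPM to 32.3 and 31.4 CPM.

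In the Notch list 4 of 7 genes rose and 1 fell, with a median of 0.81. The receptor *Notch3* was at 29 and 27.4 CPM in HS3 and 78.7 and 56.5 CPM in HS14 (log2 fold change 1.24, SE 0.13, adjusted p = 3.15e-06), below its HS7 level of 140 and 132 CPM. *Heyl*, a target of Notch, rose from 48.4 and 52.7 CPM to 100 and 79.9 CPM, and *Dtx4*, an E3 ligase tied to the receptor, from 1.78 and 1.11 CPM to 6.53 and 7.16 CPM. *Notch1*, at 7.42 and 9.86 CPM in HS3 and 10.3 and 7.41 CPM in HS14, overlapped between the groups (adjusted p = 0.963). Without the first HS3 library, 2 genes of the list fell. *Dlk1*, a membrane ligand without the Notch-activating domain of the Delta family, fell from 33.6 and 41.9 CPM to 0.899 and 0.674 CPM, 47.9-fold higher in HS3 (log2 fold change -5.58, SE 0.20, adjusted p = 1.42e-17).

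**Figure D4:**
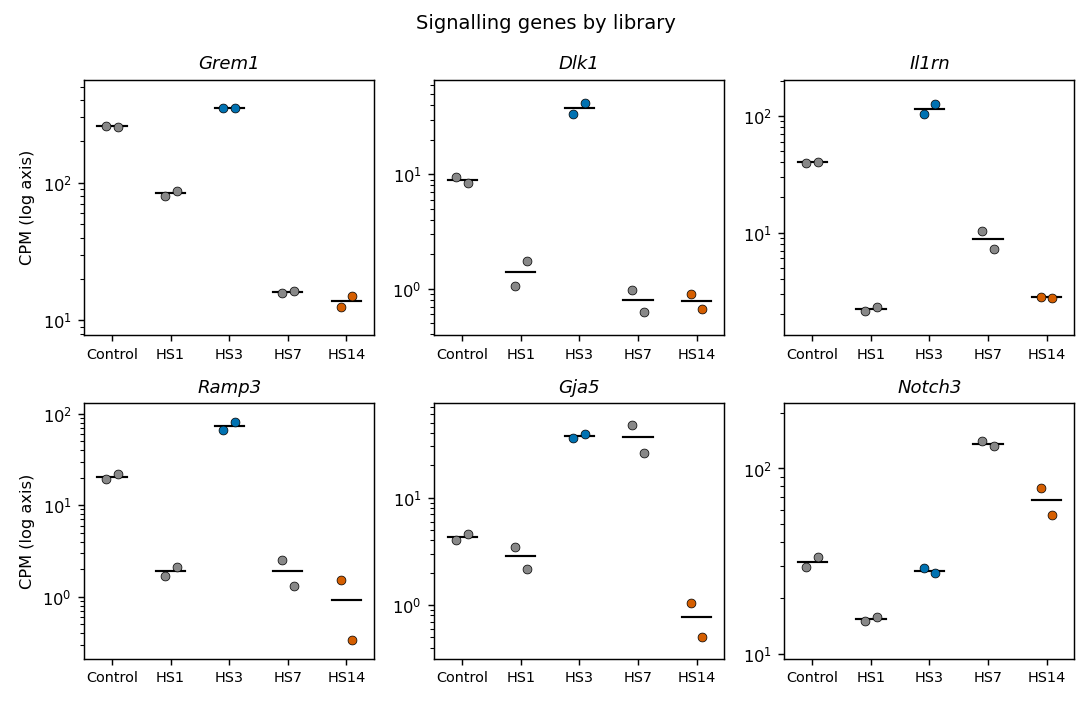
CPM on a log axis in each of the 10 libraries, by group, for 6 signalling genes; points are libraries, horizontal lines group means, and colours mark HS3 (blue) and HS14 (orange). *Grem1*, *Dlk1*, *Il1rn*, *Ramp3* and *Gja5* are lower in both HS14 libraries than in both HS3 libraries, and *Notch3* is higher.

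Of 17 growth factor and receptor genes 12 fell and 2 rose, with a median of -1.90. *Igf2*, a growth factor that myoblasts make as they differentiate, was at 107 and 102 CPM in HS3 and 14.3 and 14.1 CPM in HS14, 7.48-fold higher in HS3 (log2 fold change -2.90, SE 0.10, adjusted p = 6.54e-18). *Vegfd*, a ligand for lymphatic and vascular growth, fell from 154 and 144 CPM to 22.1 and 18.2 CPM, and *Fgf10* from 23.8 and 17.7 CPM to 1.38 and 2.02 CPM. *Pdgfb* rose from 1.42 and 1.59 CPM to 5.39 and 4.34 CPM. *Angpt2* rose from 2 and 4 counts in HS3 to 42 and 20 counts in HS14. The *Angpt2* call was lost without the first HS14 library (log2 fold change 2.59). This gene entered the fit only through its HS14 libraries, so only a rise could be seen.

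Genes of inflammation and innate immunity fell in 18 of 28 cases and rose in 5, with a median of -1.75, a share of falls near the 62.7% of all tested genes with a symbol. *Il1rn*, the antagonist of the interleukin 1 receptor, was at 103 and 127 CPM in HS3 and 2.83 and 2.74 CPM in HS14, 41.8-fold higher in HS3 (log2 fold change -5.39, SE 0.14, adjusted p = 9.54e-20). *Il1rl1* (ST2), the receptor of interleukin 33, fell from 1320 and 1270 CPM to 240 and 243 CPM, and its ligand *Il33* from 52 and 52 CPM to 12.8 and 9.89 CPM. The chemokine *Cxcl3* rose from 3.05 and 2.46 CPM to 17.4 and 16.1 CPM (log2 fold change 2.59, SE 0.19, adjusted p = 2.44e-11), which is the level of the Control libraries at 15.4 and 16.1 CPM. *Il6* and *Il11*, both secreted by muscle cells, rose at low levels, from 0.610 and 1.79 CPM to 4.11 and 3.54 CPM and from 0.813 and 1.35 CPM to 5.81 and 4.42 CPM.

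Receptors for vasoactive peptides and prostaglandin genes fell in 15 of 17 cases, with a median of -2.24, and the other 2 did not pass. *Ramp3*, which turns the calcitonin receptor-like receptor into a receptor for adrenomedullin, was at 65.7 and 80.9 CPM in HS3 and 1.52 and 0.337 CPM in HS14. It was the largest fall among the named genes chosen for size (log2 fold change -6.24, SE 0.39, adjusted p = 0.000132), and leaving out a library in turn gave between -7.77 and -5.61. Adrenomedullin itself, *Adm*, fell from 36.5 and 40.5 CPM to 2.63 and 3.20 CPM, so ligand and receptor component went down together. The vasopressin receptor *Avpr1a* fell from 34.9 and 30.6 CPM to 1.18 and 2.02 CPM, and the bradykinin receptor *Bdkrb2* from 73.4 and 76.8 CPM to 12.9 and 12.8 CPM. *Ptgs1* (cyclooxygenase 1) fell from 481 and 537 CPM to 177 and 160 CPM.

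The remaining large falls among well expressed genes, with an average log2 CPM of 3 or more, were of varied kinds. *Gja5* (connexin 40), a gap junction protein, was at 35.7 and 39.2 CPM in HS3 and 1.04 and 0.505 CPM in HS14 (log2 fold change -5.57, SE 0.20, adjusted p = 3.29e-17), and its HS7 libraries, at 47.2 and 26.1 CPM, still held the HS3 level. The water channel *Aqp1* fell from 226 and 226 CPM to 14.8 and 11.1 CPM, and its HS7 libraries were already at 9.69 and 10.7 CPM. *Dpep1*, a membrane dipeptidase, fell from 27.9 and 27.9 CPM to 0.691 and 1.39 CPM, *Anxa8*, an annexin, from 53.9 and 65.7 CPM to 2.28 and 3.70 CPM, and *Fam131b* from 21.1 and 22.2 CPM to 1.31 and 1.09 CPM.

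Developmental transcription factors fell in 18 of 26 cases and rose in 3, with a median of -1.95, and this share of falls too was near the 62.7% of the genes with a symbol. *Ebf2* fell from 56.8 and 53.4 CPM to 7.50 and 9.13 CPM, and *Nr2f2* (COUP-TFII), a nuclear receptor of mesenchyme, from 47.4 and 46.3 CPM to 4.87 and 6.61 CPM. *Six2*, a homeobox transcription factor, rose from 1.17 and 1.43 CPM to 3.91 and 5.35 CPM, and *Sox11* from 16.5 and 15.7 CPM to 40.7 and 42.1 CPM. Of the redox and xenobiotic enzymes 11 of 16 fell and the other 5 did not pass, with a median of -1.06 and a share of falls near that of the genes with a symbol. *Gpx3*, a secreted glutathione peroxidase, fell from 1140 and 1280 CPM to 222 and 211 CPM, the oxidising enzyme *Cyp1b1* from 517 and 462 CPM to 123 and 132 CPM, and the aldehyde dehydrogenase *Aldh3a1* from 31.2 and 29.6 CPM to 2.35 and 3.45 CPM. The cell cycle list had only 1 member with a symbol, the inhibitor *Cdkn1c* (p57), at 4.67 and 7.15 CPM in HS3 and 7.88 and 8.33 CPM in HS14 (adjusted p = 0.100, but 0.00528 without the second HS3 library), so proliferation genes were not analysed here. *Vdr*, the vitamin D receptor, overlapped between the groups (adjusted p = 0.153), and passed without the first HS3 library (log2 fold change 0.72, adjusted p = 0.00308).

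**Figure D5:**
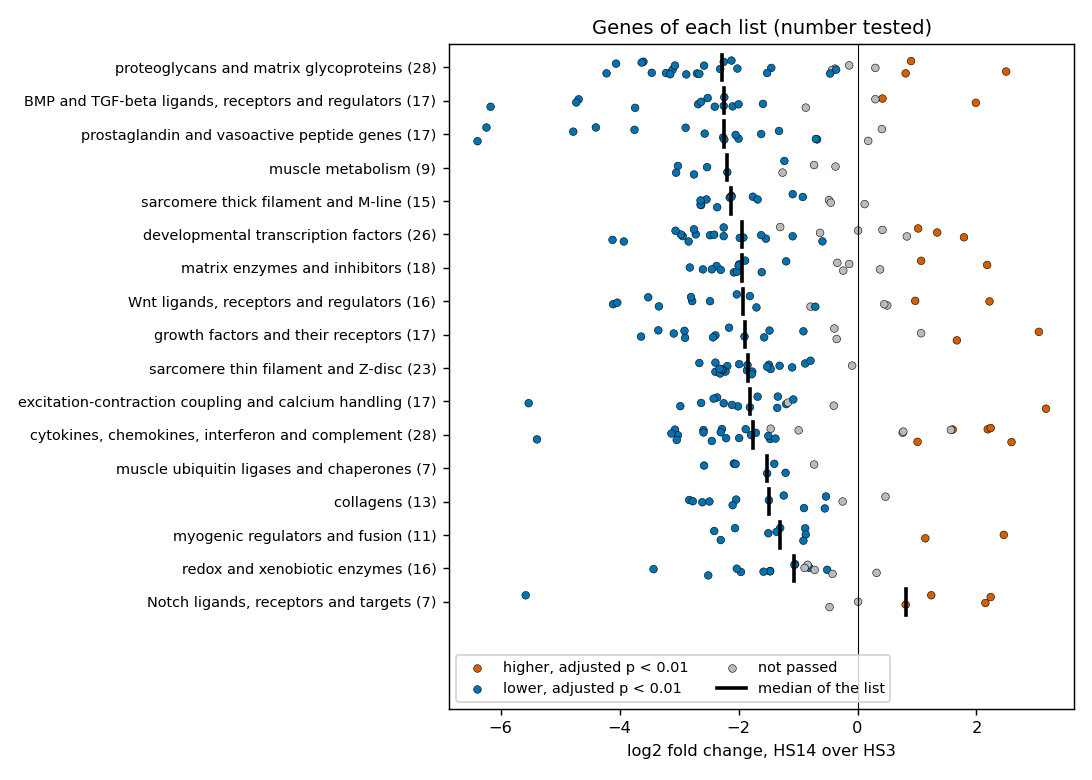
Log2 fold change, HS14 over HS3, of every tested gene of 17 lists, with the number tested in brackets; points are genes, coloured by whether they passed an adjusted p of 0.01 in either direction, and black bars are medians. The medians lie between -2.28 and -1.06 for 16 lists and at 0.81 for the Notch list.

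Among well expressed DEGs with a symbol and no overlap between the groups, 10 were higher and 186 were lower in HS14, and genes without a symbol are not in these counts. All tested genes with a symbol held 57 higher and 358 lower DEGs. The libraries of the 2 groups did not overlap for 91.7% of tested genes with a symbol and 71.7% of all genes tested. *Nup210*, a nuclear pore protein with a part in muscle differentiation, was at 1.83 and 1.23 CPM in HS3 and at 15.2 and 16 CPM in HS14, 10.2-fold higher in HS14 (log2 fold change 3.34, SE 0.22, adjusted p = 2.60e-12). *Spn* (CD43), a sialoglycoprotein best known from leukocytes, rose from 12.6 and 15 CPM to 66.2 and 61.4 CPM, and *Sim2*, a helix-loop-helix factor, from 8.69 and 8.59 CPM to 35.2 and 33.5 CPM. *Ccdc88b* and *Epb41l4a* rose by 1.56 and 1.82 on the log2 scale. For these 5 genes HS3 was the lowest of the 5 groups, and the Control means lay between HS3 and HS14 or near HS14. *Cpa1*, a carboxypeptidase, rose from 5.23 and 6.60 CPM to 21.4 and 17.9 CPM, below its HS7 level of 49.5 and 53 CPM.

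Markers of other cell types did not move as one. Of 12 tested endothelial markers 9 rose and 2 fell, with a median of 3.01, but at low levels. Among all tested genes with a symbol 11.8% rose. Of the 12 markers, 11 are on the study's lists for HS3 or HS14, made with these libraries, so the rises are not independent of that choice. *Cdh5* (VE-cadherin), which defines endothelium, was at 0.610 and 0.636 CPM in HS3 and 5.15 and 4.42 CPM in HS14 (log2 fold change 2.91, SE 0.33, adjusted p = 8.97e-08), and *Tie1* at 0.203 and 0.397 CPM in HS3 and 3.60 and 3.12 CPM in HS14. *Vwf*, *Adgrl4*, *Rasip1* and *Nos3* rose as well, none above 2.63 CPM in any of these libraries. *Emcn*, *Esam* and *Fgd5* had no count in 1 HS3 library each, and at most 4 counts in the other. They and *Tie1* entered the fit only through their HS14 libraries, so only a rise could be seen. Other risers of this list with low HS3 levels, such as *Rasip1*, may share this limit. Some of these calls rest on 1 library, since *Fgd5* no longer passed without the second HS3 library (adjusted p = 0.0149) and *Emcn* without the first HS14 library (adjusted p = 0.0139). *Nos3* lost its call without the first HS3 library or either HS14 library (adjusted p from 0.0119 to 0.0806). *Esm1*, by contrast, fell from 100 and 88.6 CPM to 4.94 and 6.40 CPM and *Kdr* (VEGF receptor 2) from 8.03 and 6.80 CPM to 3.18 and 3.20 CPM, so the summed level of the list fell from 115 and 103 CPM to 31.9 and 31.2 CPM, with *Esm1* most of it in HS3 but not in HS14. *Flt4*, at 4.47 and 4.97 CPM in HS3 and 3.28 and 2.10 CPM in HS14, did not pass (adjusted p = 0.0135), but did with no expression filter (0.00661) and without the first HS3 library (0.00756) or the first HS14 library (0.00429).

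Of 5 tested pericyte and smooth muscle markers 4 fell, *Pdgfrb*, *Myocd*, *Lmod1* and *Ppp1r14a*, and 1 rose, *Rgs5* from 0.152 and 0.0795 CPM to 1.28 and 1.14 CPM. Both HS3 values of *Rgs5* were at or under the floor of 3 counts, so the size of its rise is uncertain. It entered the fit only through its HS14 libraries, so only a rise could be seen. The summed level of the 5 markers went from 374 and 413 CPM to 107 and 100 CPM, most of it *Pdgfrb*, from 348 and 382 CPM to 102 and 95.9 CPM. Among 3 Schwann cell markers *S100b* fell from 34.6 and 33.3 CPM to 4.32 and 4.76 CPM, while *Ngfr* and *Lgi4* rose by 2.65 and 1.16 on the log2 scale. Of 5 tested leukocyte markers, *Lyz2*, *Mmp12* and *Apbb1ip* fell and *Spn* rose, and *Lcp1* overlapped. The list's summed level, from 44.6 and 53 CPM to 79.7 and 73.5 CPM, is mostly *Spn* in HS14, but not in HS3. Of 5 adipocyte markers *Adipoq*, *Plin4*, *Pparg* and *Cfd* fell, *Adipoq* from 2.24 and 1.51 CPM to 0.0691 and 0.337 CPM. *Adipoq* entered the fit only through its HS3 libraries, so only a fall could be seen. *Cfd* no longer passed without the first HS3 library (adjusted p = 0.0214), and lipoprotein lipase *Lpl* was at 91.3 and 88.2 CPM in HS3 and 104 and 95.3 CPM in HS14 without passing (adjusted p = 0.220). The part of these cell types in the other results was not tested.

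The libraries outside the comparison place the change. For 617 of the 647 lower DEGs (95.4%) the Control mean lay between the HS14 and HS3 means, and for 163 of the 184 higher DEGs (88.6%). Of all 6158 genes whose mean was lower in HS14 the share was 53.5%, and of the 6945 others it was 49.4%, and a wide gap between the 2 groups makes a value between them likelier by construction. So the HS3 mean was above Control and the HS14 mean below it for most lower DEGs. In the thick filament list all 15 genes were above Control in HS3 and 10 were below it in HS14 (medians 1.18 and -0.60). In the vasoactive and prostaglandin list 14 of 17 were above Control in HS3 and 16 below it in HS14 (medians 0.85 and -1.54). These are signs and medians of log2 fold changes against Control, without a call, and no share over all genes is given beside them. Symbols are known only for genes that the study called against Control, so a distance from Control is partly built in.

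Levels at day 7 differed by gene group. Of the 647 lower DEGs, the HS7 mean was between HS3 and HS14 for 425 (65.7%), above both for 87 (13.4%) and below both for 135 (20.9%). Over all tested genes with a lower mean in HS14 these shares were 38.6%, 29.4% and 32%, and the wide gap again makes a value in between likelier by construction. The summed thin filament genes had their highest level at HS7, with 3110 and 3190 CPM in HS3, 9380 and 5570 CPM in HS7 and 1240 and 1170 CPM in HS14. The vasoactive and prostaglandin genes were already low at HS7, with sums of 938 and 1010 CPM in HS3, 212 and 211 CPM in HS7 and 274 and 254 CPM in HS14. Collagen sums at HS7 lay in between, with 19000 and 23700 CPM in HS3, 11800 and 11500 CPM in HS7 and 4230 and 3780 CPM in HS14. *Col1a1* made up most of the collagen sum in HS3 and HS14, and *Ptgs1* the largest part of the vasoactive and prostaglandin sum. These sums were not tested against HS7. The HS7 libraries differed widely from each other in the muscle genes, which is seen in *Myh3* at 1990 and 1110 CPM. HS1, the earliest time, was below both HS3 and HS14 for 270 of the 647 lower DEGs (41.7%). Over all tested genes whose mean was lower in HS14 this share was 41.1%. HS1 lay between HS3 and HS14 for 56.4% of the lower DEGs against 34.8%, and above both for 1.85% against 24.1%. Here too the wide gap makes a value in between likelier by construction.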

How the data were processed

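RNA was sequenced by the authors from cultured soleus myoblasts (poly-A RNA, TruSeq Stranded mRNA kit, Illumina NextSeq), with 2 libraries for each of 5 groups. The authors mapped the reads with STAR, counted them per Ensembl gene with featureCounts 1.6.4 and deposited raw counts of 32622 genes without normalization. The paper's methods name the rat genome mRatBN7.2, whereas the submitters' processing notes name Rnor_6.0. How strand, read pairs and multiply mapped reads were counted is not given in the sources used here, so overlapping or near-identical genes are uncertain. At least 69.4% of counts from 1 to 20 were even in each library, and halving all counts was tried. The groups came from the sample titles.

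Counts of HS3 and HS14 were fitted with edgeR 4.0.16 in R 4.3.3 (limma 3.58.1): filterByExpr, TMM, the robust quasi-likelihood test, Benjamini-Hochberg adjustment, a prior count of 0.125 and 2 residual degrees of freedom. CPM values use TMM factors of all 10 libraries. HS3 and HS14 were each also fitted against Control in the same way, used only for signs and medians of log2 fold changes. Alternatives were DESeq2 1.42.0, halved counts, RLE factors, a fit of all 10 libraries, a replicate block, dropping the expression filter, a log2 fold limit of 1 and leaving out each library. The fits were tested on simulated data. The deposited counts carry no symbols, so these were taken from the identifier and symbol columns of the study's table of called genes, 770 symbols, and its fold changes and p-values were not used. The members and lists were chosen with earlier results of these data known. Named genes are, first, the 10 most changed DEGs each way that have a symbol, average 3 or more in log2 CPM and do not overlap between the groups. Further ones are up to 3 genes of each list with the smallest adjusted p (log2 CPM averaging 1 or more), the largest passing change against the list's sign, a fixed set of names, and all markers. Other members are named as examples after their values were seen. Promoters are from RefSeq (GRCr8), matched by symbol for 570 of the 770, with 1 start taken for each symbol. Fold changes of genes near 0 counts depend on the prior count. No gene set was tested.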

Additional observations from a re-analysis of the deposited data

How the results depend on the processing

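Direction and counts of calls were largely kept. Across DESeq2, RLE factors, no filter, all 10 libraries, the replicate block and halved counts, the 184 higher DEGs became 126 to 191 and the 647 lower DEGs 573 to 656. With a log2 fold limit of 1 there were 360 higher and 1056 lower DEGs. Leaving out each library in turn gave 138 to 177 higher DEGs, 582 to 667 lower DEGs, 1067 to 2242 genes that rose and 1736 to 2620 that fell. The count of genes that rose was 1094 without the first and 1067 without the second HS14 library, against 1811. Of 124 named genes, 110 had the same call in every alternative and none changed direction while called. *Nos3* lost its call under DESeq2 (adjusted p = 0.0384), and *Mymk* (0.0128) with all 10 libraries in one fit. The cause was not tested.

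The replicate numbers were not taken to pair the libraries. Deviations of same-numbered HS3 and HS14 libraries had a correlation of -0.00807 across genes, which shows no shared effect. With 2 libraries a group this cannot establish that they are unpaired, and the labels do not say. With the replicate block, which leaves 1 residual degree of freedom, 188 DEGs were higher and 645 lower, 1964 genes rose and 2464 fell, and *Ramp3* (log2 fold change -6.24) no longer passed (adjusted p = 0.0345), while *Tgfb2* (0.00154), *Fbxo32* (0.0035) and *Flt4* (0.00687) did. With 2 libraries a group the spread is estimated mainly from all genes together, and genes near the floor of 3 counts carry wide intervals.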

Other observations

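Some genes outside the lists moved from or to levels near 0, and they were chosen after their values were seen. Genes near 0 in either group entered the fit through the other group, so the direction of their change was fixed in advance. *Slc5a7*, the choline transporter of nerve endings, had 16 and 44 counts in the HS3 libraries and 0 and 0 in the HS14 libraries, so it was at least 11.1-fold lower in HS14, taking a floor of 3 counts. *Nefl* (neurofilament light) was at 4.27 and 4.77 CPM in HS3 and 0.0691 and 0.337 CPM in HS14, and *Prph* (peripherin) at 2.49 and 4.05 CPM in HS3 and 0.346 and 0.842 CPM in HS14 (edgeR, adjusted p = 9.30e-09 and 2.56e-05). In the other direction, *Cldn4* (claudin 4), a tight junction protein, rose from 0.305 and 0.477 CPM to 3.11 and 3.37 CPM (log2 fold change 2.98, SE 0.41), and *Celsr1*, an atypical cadherin, from 0.102 and 0.238 CPM to 2.49 and 2.95 CPM (log2 fold change 3.87, SE 0.51). *Gli1*, a target of hedgehog signalling, rose from 2.79 and 1.51 CPM to 12.9 and 8.71 CPM (log2 fold change 2.34, SE 0.27), its highest mean of the 5 groups.

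*Usp9y*, a gene of the Y chromosome, differed widely although all rats were described as male. It had 132 and 170 counts in the HS3 libraries and 2 and 2 in the HS14 libraries, or 6.71 and 6.76 CPM against 0.0691 and 0.0842 CPM (log2 fold change -6.40, SE 0.43, edgeR adjusted p = 5.50e-12). Control was at 1.74 and 1.82 CPM, HS1 at 0 and 0.0871 CPM and HS7 at 1.78 and 1.11 CPM. It is the only gene with a symbol known here to lie on the Y chromosome, so other Y genes were not analysed here, and the cause was not tested.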
